A study of Mus musculus with 6 samples.

Results

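The last steps of the respiratory chain were described here through 52 nuclear genes for complexes III, IV and V and cytochrome c, of 18193 genes that the array reports under a single symbol. A gene was a member if a probe set had exactly 1 annotated symbol and this symbol began with Uqcr, with Cox and a digit, or with Atp5, or was Cyc1 or Cycs. Where a gene had several probe sets, the one with the highest mean log2 signal was read. The members comprised 9 genes of complex III, the gene of cytochrome c, 25 genes of complex IV and 17 genes of complex V. Of the 25 complex IV genes, 16 encode subunits or their tissue isoforms, 8 are assembly factors and the last, Cox7a2l, is a factor that joins complexes III and IV into supercomplexes. All 52 passed the filter on low signal, which left 13178 genes for the test. Cox14 shares its probe set with a second symbol and Cox7b was listed for no probe set, so neither was a member. Of the 13 subunits encoded by mitochondrial DNA, 1 was read under its RefSeq symbol, ND5 of complex I, and those of complexes III, IV and V, such as cytochrome b (CYTB) and COX1, were not analysed here.

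Total RNA came from left ventricular tissue of 3 wild-type (WT) hearts and of 3 hearts that express human Glut1, a glucose transporter, from the alpha-myosin heavy chain promoter (Glut1-TG), with 1 Affymetrix array per heart. The promoter is that of a cardiomyocyte myosin, so the transgene is aimed at 1 cell type of the tissue that was sampled. All 6 mice were FVB males of 11 to 12 weeks on standard chow, and no group had a further allele or treatment. The comparison of Glut1-TG with WT asks how the myocardial transcripts differ when cardiomyocytes carry an added glucose transporter that does not depend on insulin.

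The deposited signal of each array had the same trimmed mean of 500, and the median signal over probe sets lay between 171 and 213, with Glut1-TG 1 at the top. The array reads mouse transcripts, and whether it also reads the human transgene was not tested. The probe set of highest signal for mouse Slc2a1, the native Glut1 gene, read 527, 409 and 533 in WT and 851, 753 and 757 in Glut1-TG, while the other 2 read lower in Glut1-TG, with log2 fold changes of -1.19 and -2.30, so the labels could be checked only in part. Where signal is compared in whole tissue, fewer cells of a type and less RNA per cell cannot be told apart.

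Complex III takes electrons from ubiquinol, passes them to cytochrome c and pumps protons out of the mitochondrial matrix. Complex IV, cytochrome c oxidase, hands the electrons to oxygen, and complex V, the ATP synthase, lets the protons flow back to make ATP. The working heart draws nearly all of its ATP from this route, and its complex IV carries muscle isoforms of some small subunits (Cox6a2, Cox7a1 and Cox8b) beside the forms that most tissues use (Cox6a1, Cox7a2 and Cox8a).

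Promoters of Cox8b, Cox8a and Cox6a1 are shown because the results turn on muscle isoforms of complex IV and their common counterparts. They are RefSeq windows of assembly GRCm38.p6, from 250 bases before to 50 bases after the annotated start, printed 5′ to 3′ on the strand of the gene. Capitals mark CCGGAAG, the core that ETS factors such as GABPA (NRF2) bind, GCGCATGCG, the site of NRF1, and CAGCTG, an E-box, each searched on both strands, and in Cox6a1 the 2 NRF1 matches are the same site read on either strand.
Cox8b, muscle isoform, chr7:140900397-140900696, minus strand: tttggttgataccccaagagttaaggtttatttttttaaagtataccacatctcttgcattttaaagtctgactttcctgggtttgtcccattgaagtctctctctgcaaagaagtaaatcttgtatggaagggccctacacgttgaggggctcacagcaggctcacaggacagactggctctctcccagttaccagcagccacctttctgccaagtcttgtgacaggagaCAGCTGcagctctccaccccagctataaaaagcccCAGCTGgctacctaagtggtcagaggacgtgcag
Cox8a, common isoform, chr19:7217567-7217866, minus strand: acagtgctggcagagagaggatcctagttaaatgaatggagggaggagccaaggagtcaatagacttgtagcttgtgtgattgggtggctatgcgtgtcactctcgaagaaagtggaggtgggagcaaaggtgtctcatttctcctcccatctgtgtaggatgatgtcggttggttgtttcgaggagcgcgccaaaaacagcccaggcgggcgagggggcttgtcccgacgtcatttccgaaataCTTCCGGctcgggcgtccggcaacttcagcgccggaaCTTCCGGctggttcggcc
Cox6a1, common isoform, chr5:115348909-115349208, minus strand: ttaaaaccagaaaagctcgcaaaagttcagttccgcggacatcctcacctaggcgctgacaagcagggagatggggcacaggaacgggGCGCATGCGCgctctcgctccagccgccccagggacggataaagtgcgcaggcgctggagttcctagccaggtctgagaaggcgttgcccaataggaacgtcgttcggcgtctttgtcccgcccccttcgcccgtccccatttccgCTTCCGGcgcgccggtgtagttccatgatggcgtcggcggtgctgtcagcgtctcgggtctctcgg
The Cox8b window held 2 CpG dinucleotides and 2 E-boxes, and no ETS or NRF1 match. The Cox8a window held 19 CpG dinucleotides and 2 ETS matches, and that of Cox6a1 held 32 CpG dinucleotides with 1 ETS match beside the NRF1 site. Among the other muscle and common forms, the window of Cox7a1 held 7 CpG dinucleotides and that of Cox7a2 held 20. Neither of these windows held an ETS, NRF1 or E-box match, so the motif contrast of Cox8b and Cox8a was not seen in this pair.

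Of the 52 members, 39 were matched to a promoter window, and Cox6a2 was not among them. CCGGAAG was found for 15 of the 39 (38.5%), against 12.9% of 17492 protein-coding genes. GCGCATGCG was found for 7 (17.9%, against 2.61%), those of Atp5g2, Atp5k, Atp5l, Cox6a1, Cycs, Uqcr11 and Uqcrc1. CAGCTG was found for 2, Cox8b and Atp5b (5.13%, against 17.4%), and the MEF2 motif for 0 (against 3.27%). The median member window held 20 CpG dinucleotides, against 13 over all protein-coding genes, at a median GC content of 56.7% and 56.3%. These matches describe letters in a short window and are not evidence of binding.

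No member passed limma's test, which was adjusted by Benjamini-Hochberg over the 13178 genes, in either direction, where 0.599% of all genes were called lower in Glut1-TG and 0.258% higher. The smallest adjusted p of a member was 0.12, for Cox16. At an unadjusted limma p under 0.05, 10 members (19.2%) were lower, against 5.81% of all genes, and 2 members (3.85%) were higher, against 5.47%. The lower ones were Uqcrfs1 of complex III, Cox6a2, Cox8b, Cox16 and Cox17 of complex IV, and Atp5c1, Atp5e, Atp5g2, Atp5k and Atp5md of complex V, and the higher ones were Cox19 and Cox8c. Most members (37) had a mean signal over 10000. Among the 298 other genes over that signal, 18.8% were lower and 3.36% higher at the same p, close to the members' shares. By the unpaired test named in the study's methods, 9 members were lower and 2 higher at an unadjusted p under 0.05, against 5.21% and 4.56% of all genes, and 0 after adjustment. These counts depended on single arrays. The number lower was 30 without WT 2 (4.70% of all genes), 5 without WT 1 (4.58%) and 4 without WT 3 (3.65%). It was 6 without Glut1-TG 1 (5.21%) and 3 without Glut1-TG 3 (6.19%). Without Glut1-TG 2 (5.76%) the number lay within 3 to 30.

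The log2 fold change was below 0 in 45 of the 52 members (86.5%), against 47% of all genes, with a median of -0.16 (-10.2% in signal), against 0.02. The 3 WT and 3 Glut1-TG signals did not overlap in 13 lower members (25%), against 8.77% of all genes, and in 2 higher members (3.85%), against 8.67%. Among the 298 other genes with a mean signal over 10000, these shares were 23.2% and 3.69%, and 76.8% were below 0. The direction of the members depended on how the arrays were scaled. After quantile normalization 30 members were below 0 (49.5% of all genes), with 5 lower and 3 higher at an unadjusted p under 0.05, against 5.41% and 5.74% of all genes. With each array centred on 14 cardiomyocyte markers, which moved the median of all genes to 0.19, 19 members were below 0 (21.7% of all genes), with 2 lower and 6 higher, against 1.47% and 14.3% of all genes. With each array centred on its median, 48 were below 0 (54.8% of all genes), with 17 lower and 1 higher, against 7.82% and 3.96% of all genes.

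**Figure D1:**
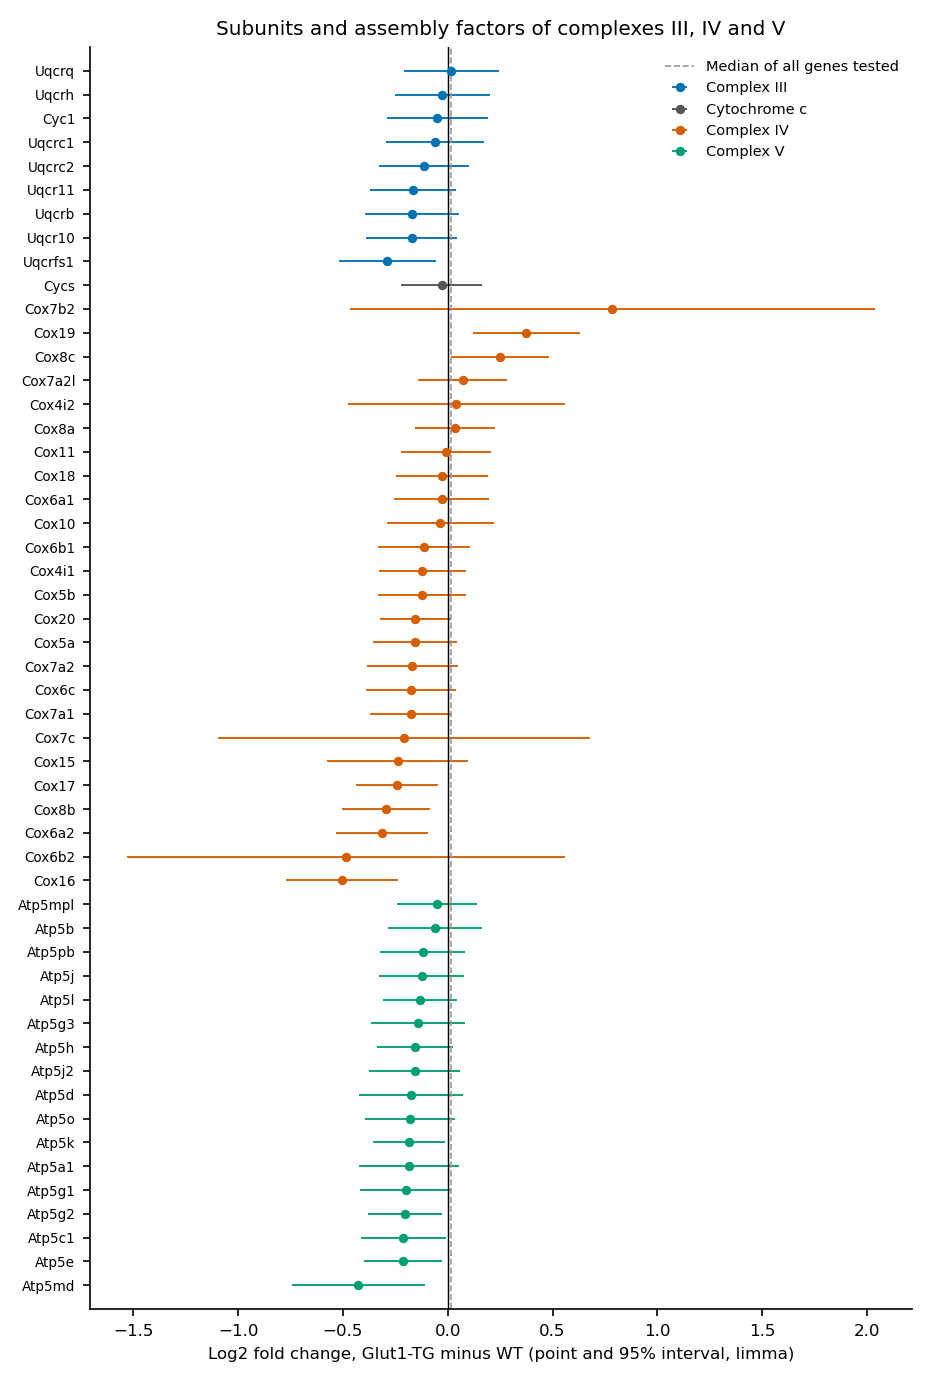
Log2 fold change of Glut1-TG against WT for each of the 52 members (points, with the 95% interval from limma as bars), grouped by complex, beside 0 (solid line) and the median of all genes tested (dashed line). All 17 complex V genes lie below 0 at the deposited scaling (13 after quantile normalization), and the widest intervals are those of Cox7b2, Cox6b2, Cox7c and Cox4i2, whose mean signals lay between 121 and 350.

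In complex III, 8 of 9 genes had a log2 fold change below 0, with a median of -0.11, against 4 of 9 after quantile normalization and 1 of 9 with arrays centred on cardiomyocyte markers. The median was -0.09 over the 4 core genes and -0.17 over the 5 small accessory subunits. Uqcrfs1 encodes the Rieske iron-sulfur protein, which carries electrons from ubiquinol towards cytochrome c1. Its signal was 34371, 28956 and 32263 in WT and 23192, 28453 and 26765 in Glut1-TG. The Glut1-TG signals were all below the WT signals, the nearest pair being Glut1-TG 2 and WT 2. The log2 fold change was -0.29 (SE 0.10, unadjusted p = 0.019, limma adjusted p = 0.35). It kept its sign under all 16 alternatives run, between -0.35 and -0.11. Alternatives that change only the filter, the test or its block keep the fold change, so their sign was fixed in advance.

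The other core genes of complex III showed smaller differences. Cyc1, cytochrome c1, read 33234, 26885 and 33628 in WT and 30784, 31923 and 27585 in Glut1-TG. Uqcrc1, a core protein that faces the matrix, read 30479, 23360 and 27868 in WT and 25933, 27211 and 24818 in Glut1-TG. In both, the Glut1-TG signals lay within the range of the WT signals, which WT 2 and WT 1 or WT 3 set. The log2 fold changes were -0.05 for Cyc1 (95% interval -0.29 to 0.19) and -0.06 for Uqcrc1 (-0.29 to 0.17). Uqcrc2, the other core protein, had -0.11 (-0.33 to 0.10). All 3 were above 0 after quantile normalization, with values of 0.07, 0.07 and 0.0070.

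Among the accessory subunits, Uqcrb, Uqcr10 and Uqcr11 each had a log2 fold change of -0.17. Only in Uqcr11 did the groups not overlap, with 29131, 23718 and 25431 in WT and 23649, 23595 and 22338 in Glut1-TG, where WT 2 and Glut1-TG 1 were nearly equal (unadjusted p = 0.11, limma adjusted p = 0.54). Uqcrh, the hinge protein that helps cytochrome c dock, had -0.03, and Uqcrq, a subunit near cytochrome b, had 0.02, the only value of complex III above 0. Further probe sets of Uqcrh and Uqcrb, at mean signals of 21574 and 22263, had -0.15 and -0.04. Cytochrome c itself, Cycs, read 35966, 34655 and 39823 in WT and 35131, 38067 and 34994 in Glut1-TG. The groups overlapped fully, with a log2 fold change of -0.03 (95% interval -0.22 to 0.17). Further Cycs probe sets above the filter, at mean signals of 30520 and 17470, had -0.16 and -0.12.

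In complex IV, the log2 fold change was below 0 in 19 of 25 genes, with a median of -0.12, against 13 after quantile normalization and 9 with arrays centred on cardiomyocyte markers. It was below 0 in 12 of the 16 subunits (median -0.14) and in 7 of the 8 assembly factors (median -0.10). Cox4i1, Cox5a and Cox5b, nuclear subunits that surround the catalytic core in every tissue, had -0.12, -0.16 and -0.12. Their 95% intervals were -0.33 to 0.09, -0.36 to 0.05 and -0.33 to 0.09. Cox5a read 40546, 34194 and 37820 in WT and 33611, 35304 and 31951 in Glut1-TG, so that Glut1-TG 2 exceeded WT 2. The 3 changed sign in some alternatives, Cox4i1 and Cox5b under quantile normalization (0.04 and 0.04) and all 3 when arrays were centred on cardiomyocyte markers. Cox6b1, Cox6c and Cox7a2 had -0.11, -0.17 and -0.17, and in each of them the groups overlapped.

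The muscle isoforms of subunits VIa and VIII were the lowest subunits of complex IV among those of high signal. Cox6a2, the VIa form of heart and skeletal muscle, read 45175, 36880 and 40362 in WT and 34669, 33436 and 30201 in Glut1-TG. Every Glut1-TG signal was below every WT signal. The log2 fold change was -0.31 (SE 0.10, -19.6% in signal, unadjusted p = 0.010, limma adjusted p = 0.27). A further Cox6a2 probe set, at a mean signal of 9678, had -0.51. Cox8b, the VIII form of the same muscles, read 37695, 30931 and 33897 in WT and 28629, 28620 and 26088 in Glut1-TG. Here too the groups did not overlap, with WT 2 the lowest WT heart. Its log2 fold change was -0.30 (SE 0.09, -18.5% in signal, unadjusted p = 0.011, limma adjusted p = 0.28). Both genes kept their sign under all 16 alternatives, Cox6a2 between -0.41 and -0.14 and Cox8b between -0.37 and -0.12. The alternatives that change only the filter, the test or its block could not alter it.

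Their common counterparts did not show that difference. Cox6a1 read 10761, 8664 and 10721 in WT and 9873, 10327 and 9236 in Glut1-TG, and Cox8a read 7971, 6722 and 7112 in WT and 7353, 7585 and 7321 in Glut1-TG. In both, every Glut1-TG signal fell inside the WT range. The log2 fold changes were -0.03 for Cox6a1 (95% interval -0.25 to 0.20) and 0.03 for Cox8a (-0.16 to 0.22). The sign of either was not stable across alternatives. Quantile normalization gave 0.07 and 0.11, and median centring gave -0.08 and -0.01. A further Cox6a1 probe set, at a mean signal of 5387.5, had 0.04.

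The change of 1 isoform against the other was measured as the log2 ratio within each array, which scaling an array by a constant leaves as it is. Only the difference of this ratio between groups was read, since 2 probe sets cannot be compared in level. The ratio does not remove a trend with signal. Other genes had a median log2 fold change of -0.07 at signals of 5000 to 10000, where Cox6a1 and Cox8a lay. Above 20000, where Cox6a2, Cox8b, Cox7a1 and Cox7a2 lay, it was -0.14. The part of this trend in the ratios was not tested. The ratio of Cox6a2 to Cox6a1 was 2.07, 2.09 and 1.91 in WT and 1.81, 1.69 and 1.71 in Glut1-TG. The groups did not overlap, and Glut1-TG minus WT was -0.29 on the log2 scale, or -17.9%. The ratio of Cox8b to Cox8a was 2.24, 2.20 and 2.25 in WT and 1.96, 1.92 and 1.83 in Glut1-TG. Again the groups did not overlap, with a difference of -0.33, or -20.4%. When the 6 arrays were regrouped in all 20 ways (two-sided exact permutation test), p was 0.1 for each, the smallest that 3 against 3 arrays allow, and 0.4 after adjustment over the 8 pairs tested, so the design could not reach 0.05. With all probe sets of each gene averaged, the differences were -0.42 and -0.55. The value of -0.55 takes in a Cox8a probe set near the filter, with a mean signal of 153 and a log2 fold change of 0.78. The other further Cox8a probe set, at a mean signal of 7198, had -0.06.

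The VIIa pair behaved otherwise. Cox7a1, the muscle form, read 34197, 30305 and 33113 in WT and 29252, 30372 and 26707 in Glut1-TG, with a log2 fold change of -0.18 (95% interval -0.37 to 0.02). Cox7a2 read 47874, 38862 and 43975 in WT and 39212, 40357 and 36408 in Glut1-TG, with -0.17 (-0.39 to 0.05). In both genes Glut1-TG 2 exceeded WT 2 and the groups overlapped. The difference of their ratio was -0.01 (exact permutation p = 0.8). Whether the VIIa ratio differed from the VIa and VIII ratios in its response was not tested.

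**Figure D2:**
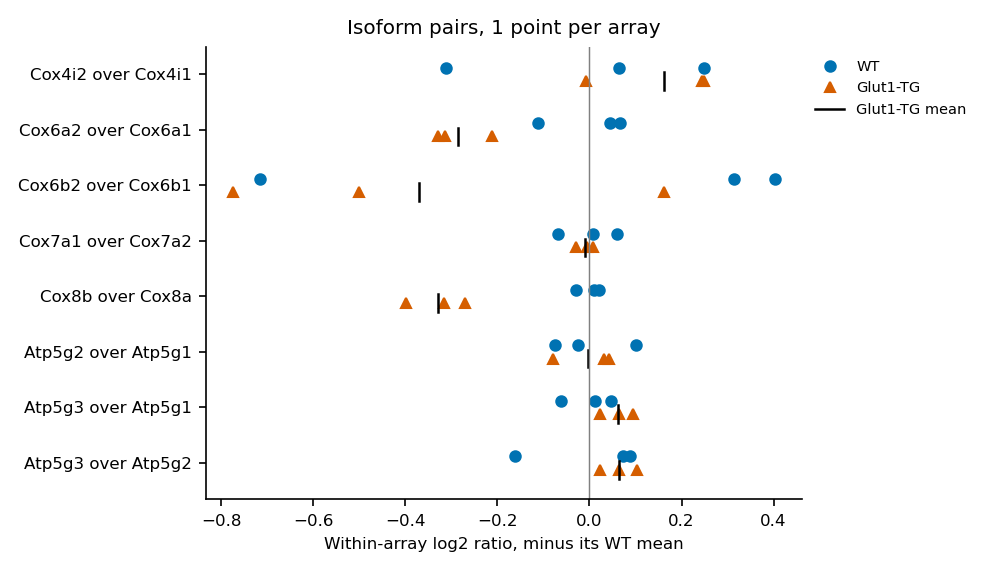
Within-array log2 ratio of each isoform pair, minus its mean in WT, for the 3 WT arrays (circles) and the 3 Glut1-TG arrays (triangles), with a bar at the Glut1-TG mean. The groups are apart for Cox6a2 over Cox6a1 and Cox8b over Cox8a and overlap in the other 6 pairs.

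The isoforms Cox4i2, Cox6b2 and Cox7b2 had mean signals between 121 and 350 and wide intervals. Cox4i2, a form of subunit IV best known from lung, read 449, 330 and 278 in WT and 327, 388 and 355 in Glut1-TG, with a log2 fold change of 0.04 (95% interval -0.47 to 0.56). Cox6b2, a form known from testis, read 223, 193 and 103 in WT and 110, 176 and 83.4 in Glut1-TG, with -0.49 (-1.53 to 0.56). Cox7b2, also known from testis, read 44.9, 128 and 135 in WT and 157, 108 and 236 in Glut1-TG, with 0.79 (-0.46 to 2.04). The groups overlapped in all 3, and the mean signals of Cox6b2 and Cox7b2 lay near the filter of 115. The within-array differences were 0.16 for Cox4i2 over Cox4i1 (exact permutation p = 0.6) and -0.37 for Cox6b2 over Cox6b1 (p = 0.4 by the same exact permutation test). Cox7c, a subunit present in every tissue, was read by a probe set with a mean signal of only 125, and its log2 fold change of -0.21 had an interval from -1.10 to 0.68.

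Cox8c, another form of subunit VIII known from testis, was among the members higher in Glut1-TG. It read 1637, 1428 and 1551 in WT and 1933, 1884 and 1673 in Glut1-TG. The groups did not overlap, with a log2 fold change of 0.25 (SE 0.11, unadjusted p = 0.039, limma adjusted p = 0.42). A further probe set of the gene, at a mean signal of 388, had -0.37, and the mean of the probe sets -0.06, so its direction depended on the probe set.

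Among the assembly factors, Cox16 and Cox19 differed most and in opposite directions. Cox16, which takes part in joining the mitochondrially encoded core subunits of the oxidase, read 1370, 1486 and 1403 in WT and 963, 1141 and 908 in Glut1-TG. Every Glut1-TG signal was clear of the WT range. The log2 fold change was -0.51 (SE 0.12, -29.6% in signal, unadjusted p = 0.0019, limma adjusted p = 0.12). Cox19, a small protein of the intermembrane space that serves copper delivery to the oxidase, read 2278, 2583 and 2537 in WT and 3699, 2796 and 3147 in Glut1-TG. The Glut1-TG signals were all higher, Glut1-TG 1 most of all. Its log2 fold change was 0.37 (SE 0.12, 29.7% in signal, unadjusted p = 0.0087, limma adjusted p = 0.25). Each kept its sign under all 16 alternatives, though those that change only the filter, the test or its block could not alter it. These 2 were the members past the study's own thresholds, which join a minimum fold change with the unpaired test's unadjusted p. At these thresholds 349 of all genes (2.65%) were lower and 423 (3.21%) higher.

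Cox17, the chaperone that hands copper to the oxidase, read 13027, 12042 and 13725 in WT and 10318, 11854 and 10675 in Glut1-TG. The groups did not overlap, although WT 2 and Glut1-TG 2 were close, and the log2 fold change was -0.24 (SE 0.09, unadjusted p = 0.021, limma adjusted p = 0.35). Cox20, which escorts newly made COX2, read 6020, 5876 and 6201 in WT and 5580, 5459 and 5214 in Glut1-TG, without overlap, and had -0.16 (unadjusted p = 0.067, limma adjusted p = 0.48). Cox10 and Cox15, the enzymes that make heme A, had -0.04 and -0.24. For Cox15 the 4 probe sets disagreed, with values from -0.24 to 0.42. Cox11 and Cox18, which insert copper and COX2, had -0.01 and -0.03. Cox7a2l had 0.07 (95% interval -0.14 to 0.28).

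In complex V, the log2 fold change was below 0 in all 17 genes at the deposited scaling, against 13 after quantile normalization and 9 with arrays centred on cardiomyocyte markers. The median was -0.17, in a range from -0.43 to -0.05. The unadjusted p was under 0.05 in 5 of them (29.4%, against 5.81% of all genes lower), and the groups did not overlap in 6 (35.3%, against 8.77%). Among the 298 other genes with a mean signal over 10000, 18.8% were lower at that p and 23.2% lower without overlap. With arrays centred on cardiomyocyte markers the complex V median was -9.68e-04, and after quantile normalization it was -0.046. The medians of the parts of the enzyme were -0.18 for the F1 head, -0.20 for the c ring, -0.14 for the peripheral stalk and -0.16 for the small membrane subunits.

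The F1 head holds the catalytic sites and the central stalk that turns inside it. Atp5a1, the alpha subunit, read 52441, 40762 and 49261 in WT and 40695, 44562 and 39564 in Glut1-TG, with a log2 fold change of -0.18 (95% interval -0.43 to 0.06). Atp5b, the catalytic beta subunit, read 42076, 33854 and 40916 in WT and 37582, 38944 and 35098 in Glut1-TG, with -0.06 (-0.29 to 0.17). In both, WT 2 was the lowest WT heart and the groups overlapped. Atp5c1, the gamma subunit of the central stalk, read 42290, 35422 and 40046 in WT and 33953, 35182 and 32312 in Glut1-TG. Its groups only just failed to overlap, at WT 2 and Glut1-TG 2, and it had -0.21 (SE 0.09, unadjusted p = 0.043, limma adjusted p = 0.43). Atp5e, the epsilon subunit, read 16910, 15408 and 16519 in WT and 13568, 15179 and 13430 in Glut1-TG, again apart by a small gap, and had -0.21 (SE 0.08, unadjusted p = 0.029, limma adjusted p = 0.39). Atp5d, the delta subunit, had -0.17 (-0.42 to 0.07).

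The c ring turns as protons pass, and its subunit is encoded by the 3 genes Atp5g1, Atp5g2 and Atp5g3, whose mature proteins are the same. Atp5g2 read 17962, 16904 and 16323 in WT and 14912, 15470 and 14059 in Glut1-TG. All Glut1-TG signals were below the WT signals, and the log2 fold change was -0.20 (SE 0.08, unadjusted p = 0.028, limma adjusted p = 0.38). Atp5g1 read 42904, 35706 and 37662 in WT and 35728, 34062 and 31194 in Glut1-TG, with -0.20 (95% interval -0.42 to 0.01), and Atp5g3 read 48714, 38517 and 43801 in WT and 40860, 40076 and 37486 in Glut1-TG, with -0.14 (-0.36 to 0.08). In these 2 genes the groups overlapped. The within-array differences were -0.0026 for Atp5g2 over Atp5g1, 0.06 for Atp5g3 over Atp5g1 and 0.06 for Atp5g3 over Atp5g2, with exact permutation p values of 0.9, 0.2 and 0.7.

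The peripheral stalk keeps the F1 head from turning with the rotor. Its genes Atp5o, Atp5h, Atp5j and Atp5pb had log2 fold changes of -0.18, -0.16, -0.13 and -0.12. Only in Atp5h did the groups not overlap, with 40231, 35930 and 38208 in WT and 34737, 34706 and 33154 in Glut1-TG (unadjusted p = 0.084, limma adjusted p = 0.52).

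The small membrane subunits help ATP synthases to pair and to shape the cristae. Atp5md, also named DAPIT, read 23449, 25625 and 27173 in WT and 15003, 19361 and 23184 in Glut1-TG. It had the lowest value of complex V, a log2 fold change of -0.43 (SE 0.14, -25.6% in signal, unadjusted p = 0.014, limma adjusted p = 0.31), and the Glut1-TG hearts were spread, with Glut1-TG 3 just below WT 1. Atp5k, subunit e, read 29536, 28185 and 29850 in WT and 26674, 25680 and 24718 in Glut1-TG. Its groups were apart, with little spread in either, and it had -0.18 (SE 0.08, unadjusted p = 0.038, limma adjusted p = 0.41). Atp5j2 (subunit f), Atp5l (subunit g) and Atp5mpl had -0.16, -0.13 and -0.05, and the groups of each overlapped. Atp5mpl, the complex V gene nearest to 0, read 20072, 17958 and 19770 in WT and 18349, 19972 and 17479 in Glut1-TG.

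**Figure D3:**
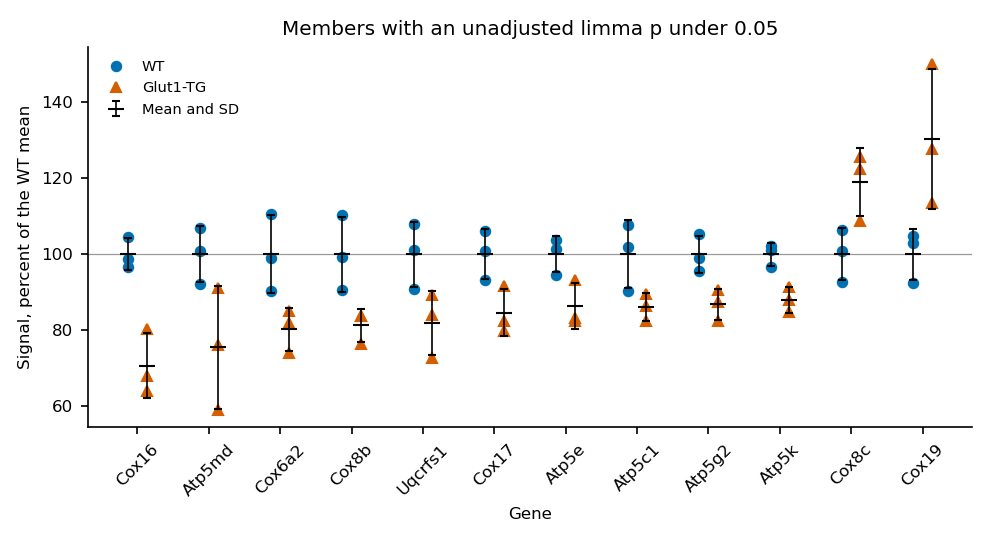
Signal of the 12 members with an unadjusted limma p under 0.05 in each array, as a percent of the mean WT signal of that gene, for WT (circles) and Glut1-TG (triangles), with mean and SD over 3 arrays. In all 12 the groups do not overlap, and Cox8c and Cox19 are the ones with higher Glut1-TG signals.

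Precision differed with signal. For the 37 members with a mean signal over 10000, the standard error lay between 0.077 and 0.14, and all 95% intervals lay within -0.74 and 0.24. These members stood at or above percentile 98.9 of the probe set signals. Of 40 further probe sets above the filter, for 27 members, 32 had the sign of the one used, the median absolute difference was 0.07, and for the 19 of them with a mean signal over 10000 it was at most 0.13. Named pseudogenes exist in RefSeq for 8 members (Atp5c1, Atp5k, Atp5l, Atp5pb, Cox5b, Cox7c, Cycs and Uqcrh), and whether their transcripts reach these probe sets was not tested.

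Other genes were compared with the members within ranges of signal. Among the 32 members with a mean signal over 20000, the median log2 fold change was -0.16 and 31 were below 0. Among the other 117 genes in that range, the median was -0.14 and 88.9% were below 0, and without the nuclear complex I genes the values were -0.14 and 87.1% over 101 genes. Between 10000 and 20000 the values were further apart, with a median of -0.20 for 5 members, all below 0, and of -0.08 for 181 other genes, of which 69.1% were below 0. The median of other genes went from 0.10 at signals of 115 to 500, over 6244 genes, through -0.05 at 2000 to 5000, to -0.14 above 20000. The part of this signal trend in the members' values was not tested.

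**Figure D4:**
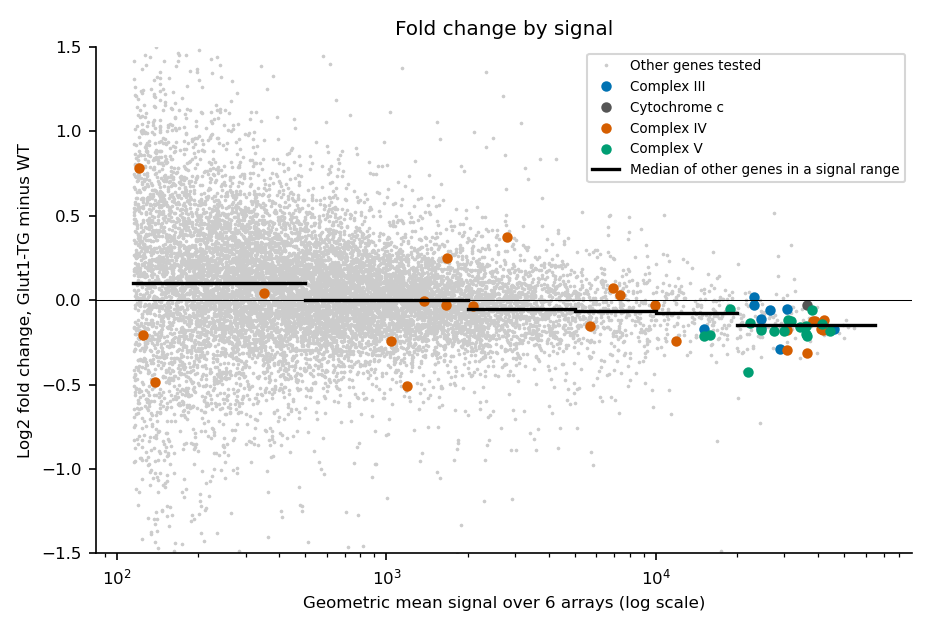
Log2 fold change of Glut1-TG against WT by mean signal over the 6 arrays (log axis) for the members (coloured by complex) and the other genes tested (grey), with the median of other genes in each signal range as bars. The vertical axis ends at 1.5 in either direction, beyond which lie some other genes and no member. Most members lie at the right, around the bar at -0.14.

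Single hearts moved many members at once. WT 1 had the highest WT signal in 38 of the 52 members and WT 2 the lowest in 41, while Glut1-TG 3 had the lowest Glut1-TG signal in 41. Relative to the WT mean, the median of the members was 0.11, -0.13 and 0.02 in the WT hearts and -0.12, -0.08 and -0.20 in the Glut1-TG hearts on the log2 scale. WT 2 was therefore below Glut1-TG 1 and Glut1-TG 2. The 14 cardiomyocyte markers followed the same order among the WT hearts, with 0.12, -0.15 and 0.02, and stood at -0.15, -0.14 and -0.24 in Glut1-TG. All 14 had a log2 fold change below 0 (47% of all genes), with a median of -0.18. Of them, 4 (Mybpc3, Ryr2, Tnnt2 and Tnnc1) were lower at an unadjusted limma p under 0.05 (28.6%, against 5.81% of all genes). Among the 298 non-member genes with a mean signal over 10000, which include these markers, 76.8% were below 0 and 18.8% lower at that p. The summed signal of the markers was 517967 to 625782 in WT and 488186 to 516998 in Glut1-TG, and no defining marker was at 0. Other genes with a mean signal over 10000 had medians of 0.08, -0.11 and 0.03 in WT and -0.13, -0.04 and -0.14 in Glut1-TG, so this order was not particular to the members. The medians of all genes lay between -0.01 and 0.04 in the 6 hearts. The part of the cardiomyocyte share of RNA in the members' values was not tested.

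**Figure D5:**
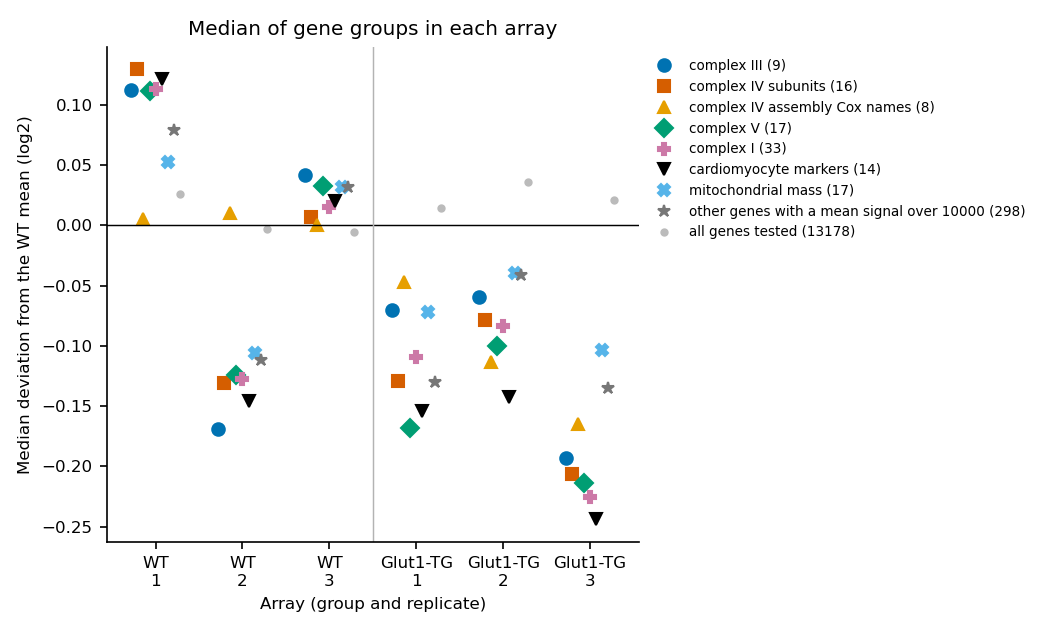
Median deviation from the WT mean (log2) in each of the 6 arrays for the members by complex and for comparison groups, with the number of genes in brackets. WT 2 lies with the Glut1-TG arrays for complex III, complex IV subunits, complex V, complex I and the cardiomyocyte markers. The same holds for the mitochondrial mass genes and for other genes with a mean signal over 10000. The median of all genes stays near 0.

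Markers of other cell types were read as well. The 9 fibroblast markers had a median of 0.07 and a summed signal of 28849 to 31574 in WT and 26712 to 35967 in Glut1-TG. Of these, 1 was higher at an unadjusted limma p under 0.05 (11.1%, against 5.47% of all genes), Postn, with 0.31 and overlap (limma adjusted p = 0.40). The 8 endothelial markers had a median of -0.02, with sums of 14160 to 16238 and 13884 to 14664. Of these, 1 was lower at that p (12.5%, against 5.81%), Kdr, with -0.44 and no overlap (limma adjusted p = 0.23). Brown fat, which is rich in mitochondria, was looked for by its markers. Of these, Cidea rose by 0.65 (limma adjusted p = 0.031), Elovl3 and Dio2 had 0.72 and 0.05, the defining marker Ucp1 and Otop1 were under the filter, and the summed signal of the 5 was 1592 to 1613 in WT and 2258 to 2421 in Glut1-TG. Of 10 skeletal muscle markers 4 were above the filter, the fast myosins Myh1, Myh2 and Myh4 were under it, and the summed signals were 61817 to 72126 in WT and 64221 to 68254 in Glut1-TG. Acta1, skeletal actin, which the heart also expresses, read 24525, 25858 and 27439 in WT and 30856, 30570 and 31878 in Glut1-TG, higher without overlap (0.26, unadjusted p = 0.0080, limma adjusted p = 0.24), while Ckm, Mylpf and Pvalb overlapped, with -0.24, -0.38 and 0.32. Of the 6 atrial markers, Myl4 rose by 1.75 on the log2 scale (limma adjusted p = 0.0085). Myl7 read 26.5, 90.5 and 14.2 in WT and 378, 713 and 315 in Glut1-TG, higher without overlap. Its log2 fold change was 3.76 (limma adjusted p = 0.041). Every WT signal of Myl7 lay below the filter, so the size of this change is uncertain. Nppa had -0.07, Bmp10 -0.61 and Myl1 0.28, all with overlap. Sln, under the filter, read 114 to 117 in WT and 39.4 to 65.3 in Glut1-TG. The 4 lymphocyte markers above the filter had values above 0, between 0.14 and 0.51, none at an unadjusted limma p under 0.05, and the summed signal of the list was 1008 to 1047 in WT and 1157 to 1398 in Glut1-TG, without overlap. The 6 smooth muscle and pericyte markers had a median of -0.05 and the 7 macrophage markers of 0.11, with sums that overlapped, as did those of the white adipocyte and erythroid markers. What these markers contribute to the members' values was not tested.

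The rest of the chain showed values close to those of the members. Of the 33 nuclear complex I genes measured, 31 had a log2 fold change below 0, with a median of -0.14, and 6 were lower (18.2%, against 5.81% of all genes) and 0 higher (against 5.47%) at an unadjusted limma p under 0.05, with Ndufv1, the flavoprotein that takes up electrons from NADH, at -0.28. Among the 298 non-member genes with a mean signal over 10000, which include complex I genes, 18.8% were lower at that threshold and 3.36% higher. ND5, the mitochondrially encoded subunit, read 47790, 37514 and 42055 in WT and 39536, 40151 and 36640 in Glut1-TG, with overlap and a log2 fold change of -0.12 (95% interval -0.35 to 0.10). Of the 4 genes of complex II, Sdhd and Sdhb were lower at that threshold (-0.37 and -0.25), and Sdha and Sdhc were not (-0.13 and 0.01). The 17 genes measured as a guide to mitochondrial mass, such as Cs and Vdac1, had a median of -0.07, with Hspa9, a matrix chaperone, at -0.28. None of these genes passed limma's adjusted test.

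Factors that build or steer the 3 complexes without a Cox, Uqcr or Atp5 name were read from lists. Of 5 factors for complex III, Bcs1l, which inserts the Rieske protein, had a log2 fold change of -0.39 (unadjusted p = 0.018, limma adjusted p = 0.34), the same direction as Uqcrfs1. Of 16 for complex IV, 12 were below 0 (median -0.05), and Higd1a, Coa3 and Ndufa4 were lower at an unadjusted limma p under 0.05, with -0.47, -0.23 and -0.20. Higd1a is a small membrane protein that binds the oxidase, and Ndufa4 is now counted as a subunit of it. Of 5 for complex V, Tmem70, needed to assemble the enzyme, had -0.33 (unadjusted p = 0.0025, limma adjusted p = 0.14), and Atpif1, the inhibitor of its reverse reaction, had -0.16. Among 5 genes of ATP export and coupling, Ucp3, a mitochondrial carrier, had 0.80 (unadjusted p = 0.0019, limma adjusted p = 0.12). None of these genes passed the adjusted test.

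Of 18 regulators of respiratory genes, 1 passed. Ppara, the nuclear receptor for fatty acids that drives genes of their oxidation, read 1452, 1803 and 1299 in WT and 696, 576 and 745 in Glut1-TG, and fell by 1.17 on the log2 scale (SE 0.16, limma adjusted p = 0.0085). The coactivator Ppargc1a had -0.24, its partner Esrra -0.07, Nrf1 0.17 and Gabpa 0.05, none past an unadjusted p under 0.05. Tfb1m, a mitochondrial ribosomal RNA methyltransferase, and Mef2c, a muscle transcription factor, were lower at an unadjusted limma p under 0.05, with -0.52 and -0.26.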

How the data were processed

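Total RNA of 6 left ventricles was hybridised to Affymetrix arrays after labelling as biotinylated cRNA. The deposited file holds linear signal intensities that the authors computed with GCOS (version not given). In each array their mean was 500 after trimming 2% at each end, so no further scaling was applied. Raw scans were not analysed. Of 45101 probe sets, 64 controls were left out, 34945 had 1 symbol, and the probe set of highest mean was taken for each of 18193 genes. Values under 1 (48 in all) were set to 1, log2 was taken, and probe sets in the lowest 40% by mean signal (under 115) were left out. An array signal carries no read depth, and the number of arrays (3 per group) limits the precision.

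Groups were compared in R 4.3.3 with limma 3.58.1 (lmFit, eBayes with an intensity trend, no covariate), with Benjamini-Hochberg adjustment over 13178 genes and 0.05 as the threshold. The paper's methods name no test for the array, so the unpaired test of its statistics section served as an alternative, with and without the study's fold threshold. Isoform pairs were tested by an exact permutation of the 6 arrays, and intervals are at 95%. The labels do not say whether hearts came from separate litters, so p-values measure the spread between these samples. Deviations of same-numbered arrays from their group means had correlations of 0.08, -0.03 and 0.05. With 3 arrays per group these values cannot decide whether the numbers pair hearts, and the labels do not say. The test was run on simulated data with known changes first.

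Named in the text are the isoform pairs, core and F1 subunits, members under an unadjusted p of 0.05, the extremes of each complex and up to 3 genes of lowest p per list; other genes were named after their values were seen. The members and all lists, which were written from general knowledge, were chosen with earlier results of these data known. Alternatives were quantile normalization, centring on the median or on cardiomyocyte markers, an offset of 50, no filter, a strict filter (upper 40%), the mean of probe sets, the replicate block, eBayes without trend, the unpaired test, and leaving out each array. Promoters came from RefSeq (GRCm38.p6), in which 39 members were matched by gene symbol. All 52 members were matched to RefSeq genes by Entrez identifier.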

Additional observations from a re-analysis of the deposited data

How the results depend on the processing

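In every setting run, 0 members passed the adjusted test. The smallest limma adjusted p among the 34 named genes was 0.089, and 499 of their 542 values under the alternatives kept their sign. Filter changes, the replicate block, eBayes without trend and the unpaired test leave the fold change as it is. Values under these alternatives kept their sign by construction. Quantile normalization left 5 members lower at an unadjusted p under 0.05, 0 of them in complex V, moved the medians to 0.0070 (complex III), -0.011 (IV) and -0.046 (V), and gave -0.10 for Cox4i2 over Cox4i1. Median centring gave 17 lower (2 in III, 7 in IV, 8 in V) and 1 higher. Centring on cardiomyocyte markers gave 2 lower (0 in III, 2 in IV, 0 in V), 6 higher, and medians of 0.060, 0.048 and -9.68e-04. Without a filter 3 complex V genes were lower, against 4.54% of all genes. The mean of probe sets gave 1 higher (5.17% of all genes), -0.42 for Cox6a2 over Cox6a1 and -0.55 for Cox8b over Cox8a. The last of these takes in a Cox8a probe set near the filter. The replicate block gave 5 lower (0 in III, 1 in V), against 5.70% of all genes, and whether its numbers pair hearts is not known. eBayes without trend gave 2 lower (0 in III, 2 in IV, 0 in V) and 1 higher, against 4.04% and 5.37% of all genes. The unpaired test gave 0 lower in III (5.21% of all genes). The study's thresholds gave 1 lower and 1 higher, against 2.65% and 3.21% of all genes. Leaving out 1 array gave 3 to 30 lower (0 to 5 in III, 1 to 11 in IV, 1 to 14 in V) and 1 to 2 higher. Over all genes these settings called 3.65% to 6.19% lower and 3.97% to 5.74% higher. The cause of these shifts was not tested. Members with signals near the filter (Cox6b2, Cox7b2 and Cox7c) had intervals too wide to read a direction.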
